A study of Mus musculus with 6 samples.

Results

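The genes described here are 10 markers of endothelial cells, the cells that line blood and lymphatic vessels, in the growing inguinal adipose tissue (iAT) of mice. They were taken by gene symbol from the deposited table, in which all 10 were found among 19831 listed genes: *Pecam1*, *Cdh5*, *Esam*, *Tek*, *Tie1*, *Eng*, *Emcn*, *Egfl7*, *Prox1* and *Sox17*. RNA was sequenced from whole iAT of 3 wild-type samples (WT) and 3 samples lacking *Npffr1*, the gene of a neuropeptide FF receptor (Npffr1-KO). All 6 were taken at postnatal day 6 from animals kept under specific pathogen-free conditions. The labels give neither sex nor how the *Npffr1* allele was made, and do not say whether a sample is 1 animal. The table holds 1 normalized read count per gene and genotype, so that for 9 of the 10 genes no spread between samples and no test between the genotypes is given here. For *Prox1* alone the reads of each library could be worked out.

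White adipose tissue is densely supplied with capillaries, which grow along with the fat depot after birth. Endothelial cells adhere to each other through cadherin and immunoglobulin-like proteins at their junctions, receive vascular endothelial growth factor (VEGF), angiopoietin and bone morphogenetic protein (BMP) signals through receptor kinases, and hold their arterial, venous or lymphatic identity through transcription factors. The inguinal depot also encloses a lymph node, whose vessels can contribute to the same RNA.

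The iAT was recognisable by its adipocyte genes, with 136814 normalized counts of *Lpl* (lipoprotein lipase) and 156285 of *Fabp4* (fatty acid binding protein 4) in WT. *Npffr1* was listed at 1.12 normalized counts in WT and 0.855 in Npffr1-KO. Recovered reads of *Npffr1* were 1, 0 and 5 in the WT libraries and 0 in each of the 3 Npffr1-KO libraries, so few that they hardly check the genotype labels. All listed genes together sum to 23137343 normalized counts in WT and 23640005 in Npffr1-KO. The size factors of the 6 libraries, by which their reads were divided, ranged from 0.916 to 1.04. *Xist*, which is expressed in females, and 4 genes of the Y chromosome were present in both pooled values. The log2 ratio of Npffr1-KO over WT was 0.52 for *Xist* and -0.25 for *Ddx3y*, and all 4 Y genes were lower in Npffr1-KO (-0.25 to -0.17). The mix of sexes in each genotype is not known. In the ratios below, a difference in that mix cannot be told apart from the genotype, and its part was not tested.

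Sequences upstream of the gene start were looked up in the RefSeq promoter table (GRCm38.p6), which gave 9 windows for 6 of the 10 genes: *Prox1*, *Egfl7*, *Eng*, *Emcn*, *Tek* and *Tie1*. *Pecam1*, *Cdh5*, *Esam* and *Sox17* had no entry. The 250 bases before the start, written 5′ to 3′ on the strand of the gene, are shown for the 2 TIE receptor genes, for *Emcn*, whose ratio between the genotypes stood nearest to 0, and for the lymphatic gene *Prox1*. Capitals mark matches to CNGGAAG on either strand, the core letters that ETS family factors, a family active in endothelial cells, are known to bind.
*Tek* (chr4:94739039-94739288, plus strand): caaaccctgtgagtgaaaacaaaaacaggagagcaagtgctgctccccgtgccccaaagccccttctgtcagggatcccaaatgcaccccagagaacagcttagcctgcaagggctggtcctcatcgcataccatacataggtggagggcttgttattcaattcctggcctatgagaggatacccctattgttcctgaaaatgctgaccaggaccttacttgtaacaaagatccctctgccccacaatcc
*Tie1* (chr4:118489850-118490099, minus strand): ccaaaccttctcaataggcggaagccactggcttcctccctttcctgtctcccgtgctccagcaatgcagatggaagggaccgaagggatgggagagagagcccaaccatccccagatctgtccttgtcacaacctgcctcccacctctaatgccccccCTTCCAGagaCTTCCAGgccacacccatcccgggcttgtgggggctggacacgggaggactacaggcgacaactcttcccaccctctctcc
*Emcn* (chr3:137340828-137341077, plus strand): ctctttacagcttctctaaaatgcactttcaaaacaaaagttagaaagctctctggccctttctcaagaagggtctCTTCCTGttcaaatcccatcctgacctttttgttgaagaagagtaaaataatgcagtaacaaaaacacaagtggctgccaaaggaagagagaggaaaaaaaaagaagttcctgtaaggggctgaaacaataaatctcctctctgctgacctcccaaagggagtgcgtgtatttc
*Prox1* (chr1:190170828-190171077, minus strand): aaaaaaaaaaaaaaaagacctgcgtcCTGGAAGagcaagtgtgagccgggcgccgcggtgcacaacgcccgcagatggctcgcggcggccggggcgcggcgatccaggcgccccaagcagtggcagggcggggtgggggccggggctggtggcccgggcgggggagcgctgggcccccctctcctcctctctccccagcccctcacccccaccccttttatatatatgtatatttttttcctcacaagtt

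The *Tek* window held no match to CNGGAAG, that of *Tie1* held 2, and those of *Emcn* and *Prox1* held 1 each. The 2 matches of *Tie1* lay 91 to 85 and 81 to 75 bases before the start. Counted over the 9 windows, 6 windows of 4 genes (*Prox1*, *Egfl7*, *Emcn* and *Tie1*) had a match, against 26.6% of 32851 windows of the same length. ACAAAG, the core letters of SOX factors, occurred in 4 windows, against 16.5% of all. AGATAA, a form of the letters of GATA factors, occurred in none of the 9, against 9.99% of all. Other forms of the GATA letters were not searched. TATAAA occurred in 1, the *Prox1* window shown, against 12.4%. Both strands were searched for each, and no 2 matches overlapped. A match in these letters is a description of the sequence and not a binding site.

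The 10 genes spanned a wide range of levels, which are compared per kilobase of the gene length in the table. In WT, *Pecam1* (the junctional adhesion molecule CD31) stood highest with 5817 normalized counts per kilobase, and *Cdh5* (VE-cadherin, the adherens junction cadherin of endothelium) followed with 5751. *Egfl7*, a secreted protein of the vessel matrix, reached 3902, *Eng* (endoglin, a co-receptor of BMP9 and TGF-β) 2664, and *Esam* (endothelial cell adhesion molecule, at tight junctions) 2637 normalized counts per kilobase. *Tie1* had 1756, *Emcn* (endomucin, a sialomucin of capillaries and veins) 1331, *Tek* (the angiopoietin receptor TIE2) 491 and *Sox17* (a transcription factor of arterial endothelium) 398. *Prox1*, the transcription factor that defines lymphatic endothelium, was the lowest with 13.7 normalized counts per kilobase.

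The level of *Pecam1* lay above that of 98.7% of all listed genes and that of *Sox17* above 76.6%, whereas *Prox1* exceeded 29.3%. The step from *Sox17* to *Prox1* was 29.0-fold per kilobase in WT. The other steps between neighbours in the order were between 1.01-fold and 2.71-fold. *Pecam1* and *Cdh5* differed 1.01-fold, as did *Eng* and *Esam*, and without a spread between samples neither pair can be put in order. In Npffr1-KO the order was the same for 8 of the 10 genes, with *Eng* and *Esam* exchanged. *Tie1* exceeded *Tek* 3.58-fold per kilobase in WT and 4.04-fold in Npffr1-KO.

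**Figure D1:**
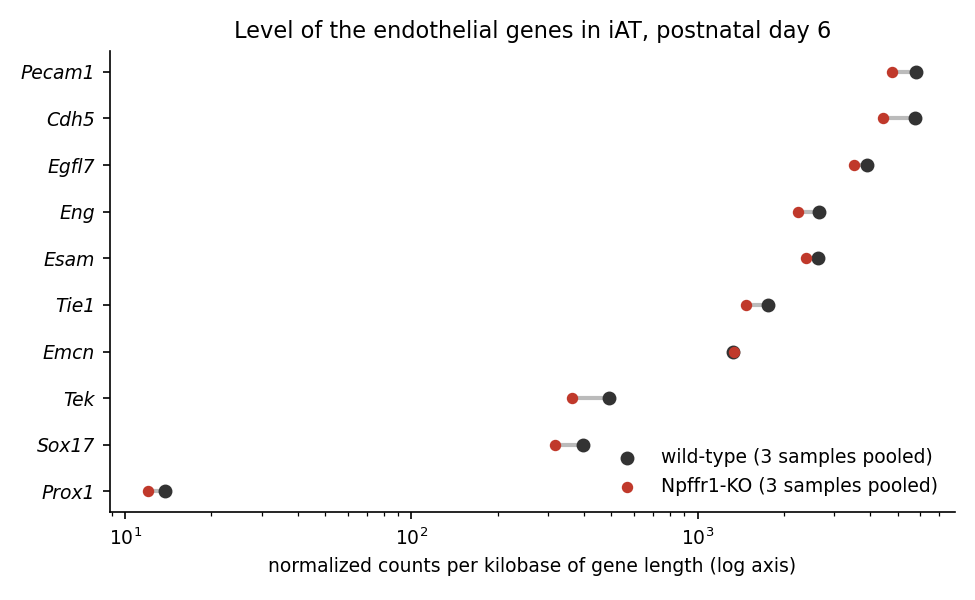
Level of each of the 10 endothelial genes in normalized counts per kilobase of gene length (log axis), with 1 dot for the pooled value of the 3 WT samples (black) and 1 for the 3 Npffr1-KO samples (red). *Prox1* stands apart at 13.75 and 12.01, and the red dot lies left of the black one for all genes but *Emcn*.

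The genotypes are compared below by the log2 ratio of the Npffr1-KO to the WT value, which is negative where Npffr1-KO was lower. Of the 10 genes, 9 had a lower value in Npffr1-KO and *Emcn* a slightly higher one. The median log2 ratio was -0.25, against 0.01 over the 15309 genes whose mean reached 10 normalized counts or more, as that of all 10 endothelial genes did. Over those 15309 genes the share with a lower value in Npffr1-KO was 48.8%. In 5 of the 10 genes (*Tek*, *Cdh5*, *Sox17*, *Pecam1* and *Tie1*) the ratio was -0.25 or below, as it was in 16.6% of all these genes. None of the 10 was lower by 0.5 or more, a size reached by 4.78% of all, and none was higher by 0.5 or more, as 4.37% of all were. The central range of all genes, from the 5% to the 95% quantile, ran from -0.49 to 0.48, and each of the 10 genes lay inside it.

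Most of the endothelial genes were well expressed, so they were also set beside the 5283 genes whose mean reached 1000 normalized counts or more. Of the 9 endothelial genes at that level, which leave out *Prox1*, 8 were lower in Npffr1-KO, against 46.8% of genes that high. The 5 genes at -0.25 or below compare with 10.8% there. Summed over the 10 genes, the endothelial signal was 73374 normalized counts in WT and 60616 in Npffr1-KO, a log2 ratio of -0.28. This was 0.317% of all normalized counts in WT and 0.256% in Npffr1-KO. In whole tissue, fewer endothelial cells and less of their RNA per cell cannot be told apart.

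**Figure D2:**
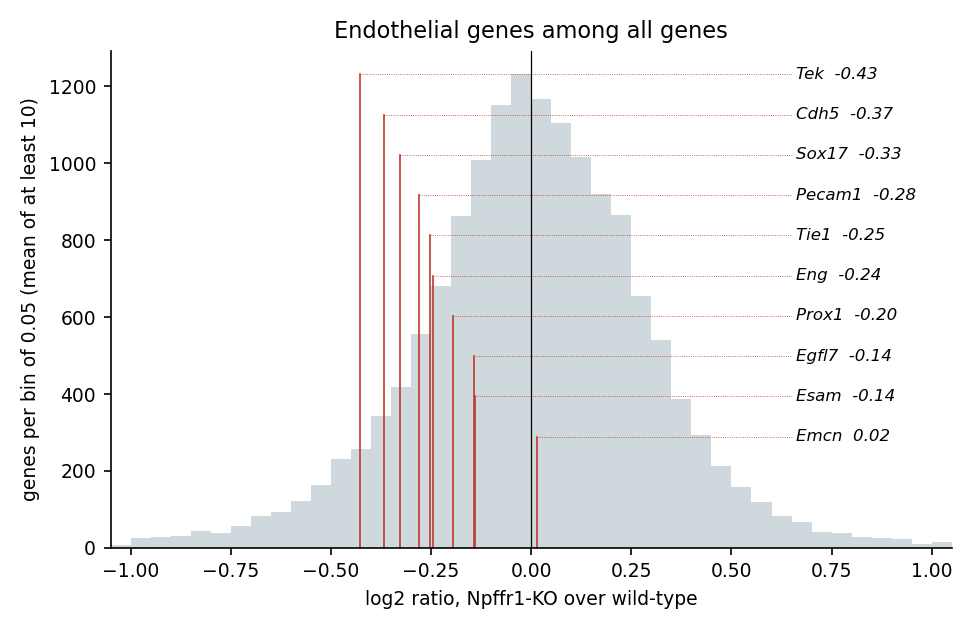
Number of genes (vertical axis) per log2 ratio of Npffr1-KO over WT in bins of 0.05 (horizontal axis), for the 15309 genes whose mean reached 10 normalized counts, with the 10 endothelial genes as red lines whose height carries no value. The red lines run from -0.43 for *Tek* to 0.02 for *Emcn*, and 9 of the 10 stand left of 0.

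Among the adhesion genes, *Cdh5* had 23029 normalized counts in WT and 17863 in Npffr1-KO, the largest number of the 10 genes in either genotype when gene length is not taken into account. Its value was 22.4% lower, a log2 ratio of -0.37, and 9.43% of all genes had a lower ratio. *Pecam1* had 18487 normalized counts in WT and 15218 in Npffr1-KO, a log2 ratio of -0.28. The third junctional gene, *Esam*, differed less, with 4904 and 4454 normalized counts and a log2 ratio of -0.14. After subtraction of the median of genes of like length the 3 ratios lay closer together, at -0.30 for *Cdh5*, -0.26 for *Pecam1* and -0.22 for *Esam*.

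The 2 TIE receptors and endoglin were each lower in Npffr1-KO. *Tek* had 2261 normalized counts in WT and 1681 in Npffr1-KO, and its log2 ratio of -0.43, a value 25.6% lower, was the lowest of the 10 genes. Its ratio was undercut by 6.95% of all genes. *Tie1*, which pairs with TIE2 at the cell surface and binds no angiopoietin by itself, had 6819 and 5724 normalized counts, a log2 ratio of -0.25. *Eng*, 9171 in WT and 7739 in Npffr1-KO, had a log2 ratio of -0.24.

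*Emcn* was the only gene of the 10 that was not lower, with 1961 normalized counts in WT and 1982 in Npffr1-KO. Its log2 ratio of 0.02 stood in the middle of all genes, 51.1% of which had a lower ratio. The sign of so small a ratio turned with the scaling: it was -0.02 when each genotype was divided by its sum over all genes, and -0.09 when the median of genes of like length was subtracted. *Egfl7* had 5338 and 4834 normalized counts, a log2 ratio of -0.14.

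*Egfl7* is also the host gene of miR-126, a microRNA known from endothelium. Its mature form miR-126a-3p lies at chr2:26591402-26591423 on the plus strand (GRCm38.p6, RefSeq), shown here because it comes from the same transcript, with the seed (bases 2 to 8) in capitals.
miR-126a-3p: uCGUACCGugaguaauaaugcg

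The table lists the hairpin gene *Mir126a* apart from its host, at 0.683 normalized counts in WT and 0.689 in Npffr1-KO, which correspond to 2 reads in each genotype. *Mir126b*, at the same place on the opposite strand, had 0, 2 and 5 reads in the WT libraries and 0 in each Npffr1-KO library (p = 0.4, exact permutation test), with library A at 0 as well. These reads of hairpin genes do not measure the mature microRNA.

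Of the transcription factors, *Sox17* had 1346 normalized counts in WT and 1073 in Npffr1-KO, a value 20.3% lower, with a log2 ratio of -0.33. *Prox1* had 57.03 and 49.81, a log2 ratio of -0.20. Counting error alone, if each value is taken as the mean of 3 libraries, gives a standard error of 0.16 for the log2 ratio of *Prox1*, while for the other 9 genes it lies between 0.0083 and 0.034. That error leaves out all variation between animals, which for the 9 higher genes was not measured.

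For *Prox1* the whole reads behind the mean were recovered. Within the range searched, a single combination of reads over the 6 libraries gives the deposited mean. The libraries are lettered A to C for WT and D to F for Npffr1-KO, and their sample numbers are not known. *Prox1* had 30, 94 and 54 reads in libraries A, B and C, and 60, 70 and 16 reads in D, E and F. After division by the size factors this makes 29.0, 92.0 and 53.6 normalized counts in WT and 57.8, 70.6 and 17.5 in Npffr1-KO. Library B was the highest and library F the lowest, and the genotypes overlapped, with A below 2 of the 3 Npffr1-KO libraries.

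The mean of *Prox1* was 58.2 ± 31.8 normalized counts in WT and 48.6 ± 27.8 in Npffr1-KO (SD, n = 3 each). The difference was smaller than the spread between libraries, with p = 0.8 in a two-sided exact permutation test, in which 3 against 3 libraries cannot give less than 0.1. From the reads the log2 ratio was -0.26, compared with -0.20 for the deposited values, which lie closer together than the library means for genes with few reads. Leaving out 1 library in turn moved it between -0.63 and 0.24, and its sign turned without library B (0.24) or without library F (0.14).

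*Prox1* varied between libraries more than most recovered genes of its level. It spread 3.18-fold within WT and 4.05-fold within Npffr1-KO, whereas the median gene with a mean of 50 to 57 normalized counts spread 1.46-fold within WT. The within-genotype SD of its log2 level was 0.97, against a median of 0.36 and a 90% quantile of 0.61 over 169 such genes whose reads were recovered. None of the 169, which include *Prox1*, had a larger SD, but within WT another of them spread 3.24-fold. Genes with a library outside the range searched could not be recovered, so wider spreads can be missing.

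Of the genes on the vessel and pathway lists, 5 could be followed library by library in the same way, but *Angpt4*, with 9 reads in each genotype, and *Gdf2*, with 2 in each, have too few reads for a comparison. *Nts* (neurotensin, made by lymphatic endothelium) had 26.1, 69.5 and 69.5 normalized counts in WT and 44.3, 59.5 and 43.6 in Npffr1-KO. Library A was its lowest, and the log2 ratio of the library means was -0.16 (p = 0.8, exact permutation test). *Ccbe1*, which is needed for VEGF-C processing, had 17.4, 26.4 and 41.7 in WT and 30.8, 24.2 and 8.73 in Npffr1-KO, a log2 ratio of -0.42 (p = 0.5, exact permutation test). *Sele* (E-selectin of activated endothelium) had 17.4, 20.6 and 20.8 against 20.2, 22.2 and 8.73, a log2 ratio of -0.20 (p = 0.8, exact permutation test). The genotypes overlapped for *Nts*, *Ccbe1* and *Sele*, and library F was the lowest for *Ccbe1* and *Sele*, as it was for *Prox1*. Over these 3 genes and *Prox1*, leaving out 1 library turned the sign for all but *Ccbe1*, which stayed between -0.79 and -0.04.

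**Figure D3:**
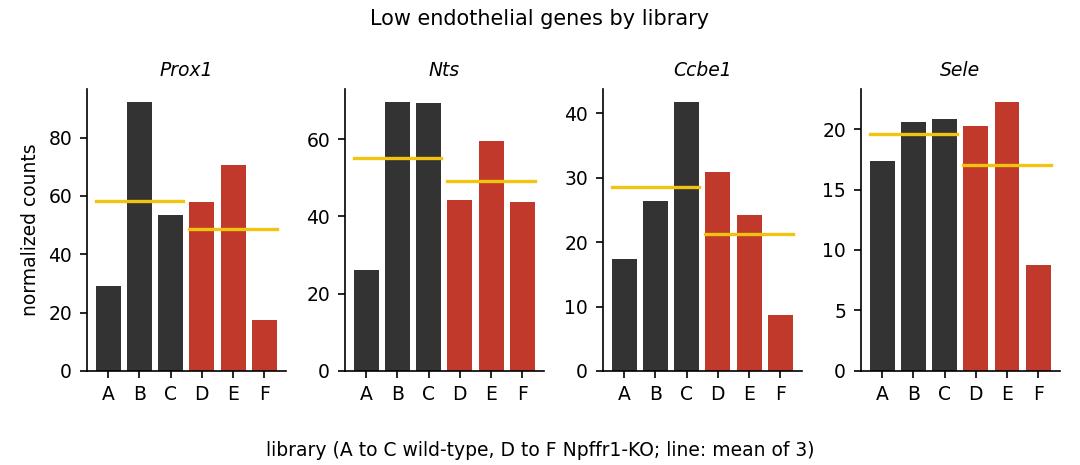
Normalized counts of *Prox1*, *Nts*, *Ccbe1* and *Sele* in each library (bars from 0), with WT libraries A to C in black, Npffr1-KO libraries D to F in red and a line at the mean of 3. The genotypes overlap in each panel, and library F holds the lowest *Prox1*, *Ccbe1* and *Sele* values (17.5, 8.73 and 8.73).

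Other endothelial genes, listed apart from the 10, were also mostly lower in Npffr1-KO. Their lists were chosen with earlier results of these data known, so they are no independent support. Over the 15309 genes with a mean of 10 or more, 48.8% were lower and 16.6% stood at -0.25 or below. A ratio of -0.5 or below was reached by 4.78% of them. Of 32 general endothelial genes, 29 were lower and 3 higher, with a median log2 ratio of -0.29 (-0.30 after centring on genes of like length), and 21 stood at -0.25 or below. Their highest members were *Cd93*, a C-type lectin receptor, with 12664 and 10696 normalized counts, *Aplnr*, the apelin receptor, with 9140 and 7570, and *Cldn5*, the tight junction claudin, with 8950 and 6593. Past 0.5 in size were *Vwf* (von Willebrand factor, -0.85), *Cyyr1* (-0.67), *She* (-0.65) and *Flt1* (VEGF receptor 1, -0.53). *Vwf* had 3613 normalized counts in WT and 1998 in Npffr1-KO, and its log2 ratio was the lowest of the list and lower than that of any of the 10 genes.

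By vessel type, all 12 arterial genes were lower, with a median log2 ratio of -0.30. They include *Notch1* (-0.47), *Notch4* (-0.29), *Jag1* (a Notch ligand, -0.37) and *Sema3g* (-0.70). Of 6 venous and activation genes 5 were lower, among them *Nr2f2* (COUP-TFII, which sets venous identity, -0.45), *Ephb4* (-0.37) and *Selp* (P-selectin, -0.52), whereas *Vcam1* was higher (0.13). Of 10 lymphatic genes besides *Prox1*, 8 were lower and 2 higher, with a median of -0.27. *Foxc2* (lymphatic valve factor, -0.66), *Reln* (-0.64) and *Flt4* (VEGF receptor 3, -0.45) were lower, *Lyve1* had 1283 and 1280 normalized counts, and *Ccl21a*, a chemokine of lymphatic vessels and lymph node stroma, was higher with 5536 and 7100. Because of *Ccl21a*, the summed level of the lymphatic list was higher in Npffr1-KO (10976 against 10155), opposite in sign to its median. A near-identical copy of *Ccl21a* exists in the mouse, so its count is uncertain.

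The genes of high endothelial venules, the vessels through which lymphocytes enter lymph nodes, had a median log2 ratio of 0.09, with 1 of 5 genes lower and 4 higher. After centring on genes of like length the median was 0.02 and 2 of 5 were lower, *Glycam1* having turned from 0.09 to -0.18. *Glycam1*, a sulphated ligand of L-selectin, had 5392 normalized counts in WT and 5736 in Npffr1-KO, *Enpp2* (autotaxin) had 3751 and 4342, and *Madcam1* had 1508 and 1292. Over the 5 vessel lists together, without the 10 genes, 55 of 65 genes were lower with a median of -0.29. The share over all genes was 48.8%. After centring on genes of like length, 58 of 65 were lower.

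Of the pathway lists, the angiopoietin and TIE list and the endoglin and ALK1 list contain receptors among the 10. Those lists were less uniform than the general and arterial endothelial lists. Over all genes with a mean of 10 or more, 48.8% were lower. In the angiopoietin and TIE list, 6 of 9 genes with a mean of 10 or more were lower and 3 higher, with a median of -0.22, or -0.07 after centring on genes of like length and -0.12 with the low gene *Angpt4* included, and this list contains *Tek* and *Tie1* themselves. The phosphatase gene *Ptprb* (VE-PTP, which dephosphorylates TIE2) was at -0.29. *Klf2*, a flow-induced transcription factor, was higher with 4514 normalized counts in WT and 5159 in Npffr1-KO, a log2 ratio of 0.19. Of the VEGF ligands and receptors, which include none of the 10 endothelial genes, 8 of 10 were lower. Their median was -0.20, or -0.14 after centring on genes of like length. The 2 higher genes were the ligands *Vegfb* (0.27) and *Pgf* (0.24). *Kdr* (VEGF receptor 2) stood at -0.41, and *Vegfa* and the co-receptor *Nrp1* at -0.13 each.

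In the endoglin and ALK1 list, which contains *Eng*, 5 of 10 genes were lower and 5 higher, near the 48.8% lower over all genes. The median was -0.08, which turned to 0.0037 with the low gene *Gdf2* included. The receptor *Acvrl1* (ALK1) was lower, with 2372 and 1875 normalized counts and a log2 ratio of -0.34. *Id3*, a target of BMP signalling, was higher, with 2126 and 2713 and a log2 ratio of 0.35, which centring on genes of like length lowered to 0.15. *Id1* and *Id2*, of the same family, were at 0.21 and 0.02, or 0.0030 and -0.15 after that centring. Without a spread between samples, *Id3* alone gives no direction for the pathway.

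Markers of other cells in the tissue were set beside all genes with a mean of 10 or more, of which 48.8% were lower. Of 10 genes of mural cells, the pericytes and smooth muscle cells around vessels, all were lower in Npffr1-KO, with a median of -0.20 and a summed level of 57807 normalized counts in WT and 48978 in Npffr1-KO. *Myh11* (smooth muscle myosin) was at -0.55 and *Rgs5*, a pericyte gene, at -0.19. Adipocyte progenitor genes were lower in 7 of 8 cases (median -0.22, sum 594701 and 477665), and Schwann cell genes in 5 of 6 (median -0.57, sum 37616 and 27194). All 7 T cell genes were higher (median 0.64, sum 7701 and 11963), as were all 7 B cell genes (median 0.33, sum 10240 and 12784). After centring on genes of like length these medians were 0.56 and 0.17. Adipocyte genes were higher in 6 of 8 cases (median 0.15, or 0.06 after centring on genes of like length, sum 410768 and 435430). Macrophage genes were higher in 4 of 8 cases, near the share over all genes (median 0.11, sum 21459 and 24632). The widest differences were those of brown and beige adipocyte genes, all 5 higher (median 1.55, sum 1365 and 4554), and of skeletal muscle genes, all 6 higher (median 0.75, sum 2402 and 3171). *Dio2*, a low brown and beige gene, had 12.6, 10.8 and 50.6 normalized counts in WT and 52.0, 26.2 and 20.7 in Npffr1-KO. Its libraries overlapped between the genotypes (p = 0.5, exact permutation test). All 6 erythroid genes were higher (median 0.19, or -0.04 after centring on genes of like length), as were all 6 genes of proliferating cells (median 0.25). None of the genes counted in these 11 lists was at 0 in either genotype. Deposited values can stay above 0 without reads, as for *Npffr1* in Npffr1-KO, so this is no evidence of expression. The part of these other cells in the endothelial ratios was not tested.

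**Figure D4:**
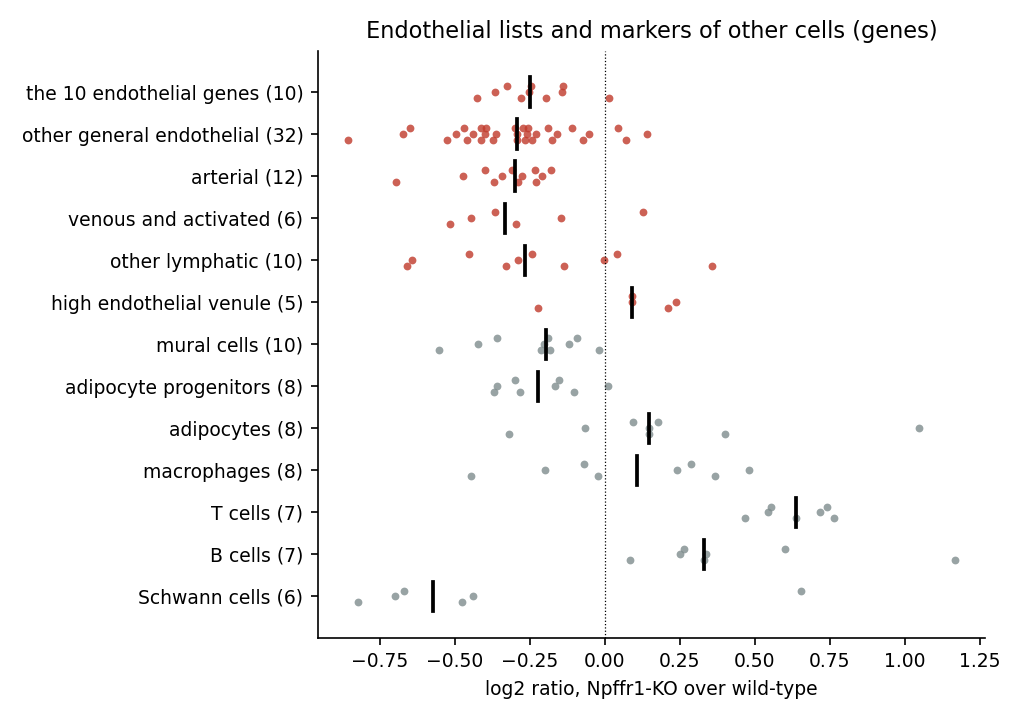
Log2 ratio of Npffr1-KO over WT for each gene of the 10 and of the 5 vessel lists (red dots) and of markers of other cells (grey dots), with a black bar at the median and the number of genes in parentheses. The medians of the 10 genes and of the general, arterial, venous and lymphatic lists lie between -0.33 and -0.25, that of the high endothelial venule list lies at 0.09, and the medians of T and B cells lie at 0.64 and 0.33.

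The ratio between the genotypes varied with gene length, so the 10 genes were also read against genes of like length. After this centring all 10 were lower in Npffr1-KO, with a median of -0.24. The short genes *Egfl7* (1368 bases) and *Esam* (1860 bases) then stood at -0.25 and -0.22, further from 0 than before, while *Tek* (4603 bases) moved from -0.43 to -0.33. Division by the sum of each genotype lowered each ratio by 0.03. The largest move of any of the 10 genes under these scalings was 0.11, and *Emcn* alone changed sign.

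**Figure D5:**
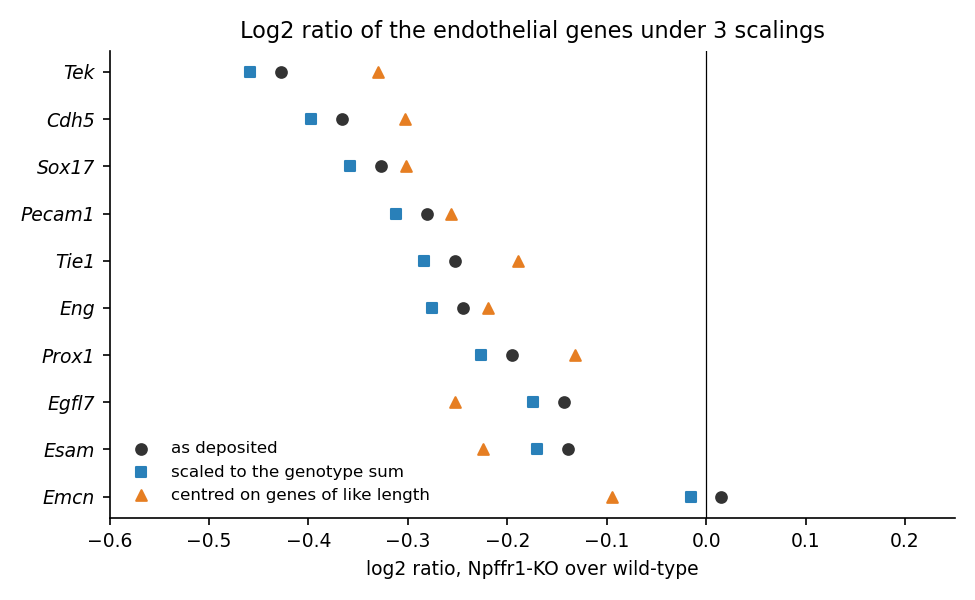
Log2 ratio of Npffr1-KO over WT (horizontal axis) of the 10 endothelial genes from the deposited values (black circles), after division by the sum of each genotype (blue squares) and after subtraction of the median of genes of like length (orange triangles). *Emcn* passes from 0.02 to -0.02 and -0.09, and the other 9 genes stay below 0.

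Sequence shared with other genes limits some of these values. Of the 31-base stretches of *Sox17* transcripts (GENCODE M21), 15.7% also occur in other genes, chiefly in *Gm37587* on the opposite strand, which overlaps 16.8% of its exonic bases. For *Egfl7* 7.52% are shared, mostly with *Gm20532* on the same strand, and for *Prox1* 1.23%, mostly with *Prox1os* on the opposite strand. The share was 2.498% for *Pecam1*, 1.74% for *Tie1*, 0.751% for *Eng* and at most 0.018% for the remaining 4 genes. Whether the counting used strand is not given in the sources used here, so reads of *Sox17* and of its antisense neighbour may not be told apart where they overlap.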

How the data were processed

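Total RNA of 6 iAT samples was sequenced. The authors aligned with Bowtie2, counted with RSEM and normalized with DESeq2, per the labels. For these tools no version is known, and the genome build and annotation were not given in the sources used here. Their deposited table holds, as a signal, normalized read counts pooled to 1 value per genotype. The authors' columns of fold changes, p-values and calls were not used, nor was the shorter table of selected genes. The mean of both values is the mean over the 6 libraries, and their ratio is drawn towards 1 for genes with few reads.

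Log2 ratios were computed without a pseudocount, with thresholds of 0.25 and 0.5, for genes with a mean of at least 10. Genes of like length were formed in 20 classes. No test across genes was possible. For genes with a mean of up to 100, combinations of whole reads over the 6 libraries were searched for the deposited mean. Each library was held to about 0.2 to 2.5 times the mean, or up to 6 times it below a mean of 12. The genotype of a library came from genes with a single read. With a wider range of up to 4 times the mean, 12 in place of 13 genes of the lists with a mean of at least 12 had exactly 1 combination. Having exactly 1 combination thus depends on the range, but *Prox1* kept 1 in both. Of 171 genes with a mean of 50 to 57, 98.8% had exactly 1 combination, and the direction was that of the deposited values for 137 of 137 genes past 0.1. The search was tested on simulated data. With the mean shifted to values that no reads gave, 2 of 21 trials still found a match, both for *Tnnc2*, which is not reported. Library means were compared with exact permutation tests. The spread between samples that enters these tests may be technical. Intervals were not drawn for pooled values, because their spread between samples was not measured and counting error alone leaves it out.

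The 10 genes and all lists were chosen with earlier results of these data known. Named are the 10 genes, *Npffr1*, and of each list at most the 3 genes of highest mean and those past 0.5. Of markers of other cells a few of these are named. *Nts*, *Ccbe1*, *Sele*, *Angpt4*, *Gdf2*, *Mir126a*, *Mir126b*, *Id1*, *Id2*, *Vegfb*, *Pgf* and *Dio2* were named after their values were seen. Python 3.11.15 with pandas 2.3.3 and scipy 1.17.1 was used.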

Additional observations from a re-analysis of the deposited data

How the results depend on the processing

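With 1 or 10 added to both values, with the median gene or genes of like length taken as 0, and with division by the genotype sum, 9 of the 10 endothelial genes kept a lower value in Npffr1-KO, and *Emcn* changed sign under the last 2. The number of genes lower in Npffr1-KO was 9, or 10 under those 2 settings, and 8 with a minimum mean of 100, which leaves out *Prox1*. Without a minimum mean, the median of the angiopoietin and TIE list was -0.12 in place of -0.22 and that of the endoglin and ALK1 list 0.0037 in place of -0.08, each with 1 low gene more. The median of the 10 genes ranged from -0.24 (like length) to -0.28 (genotype sum). With a threshold of 0.25 in place of 0.5, 5 genes were past it in place of 0, because the threshold is lower. Without division by gene length only 2 of 10 genes kept their place in the order of levels. The log2 ratios from reads per library ranged, with 1 library left out, from -0.63 to 0.24 for *Prox1*, from -0.50 to 0.04 for *Nts*, from -0.79 to -0.04 for *Ccbe1* and from -0.44 to 0.11 for *Sele*. No paired analysis was possible because neither the columns nor the recovered libraries carry replicate numbers. Depth limits *Prox1*, *Npffr1* and *Mir126a*, and a spread between samples is missing for the 9 higher genes. Comparisons with genes of a mean of at least 1000, and the search of genes with a mean up to 140, were added after seeing the data.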

Other observations

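Angiogenesis was the process annotated in the deposited table for most of the endothelial genes, 7 of the 10 (*Pecam1*, *Tek*, *Tie1*, *Emcn*, *Egfl7*, *Eng* and *Sox17*). This term was chosen after the values were seen. It covers 196 listed genes, which include growth factors and genes of many cell types. Of the 180 whose mean reached 10 normalized counts, 116 (64.4%) were lower in Npffr1-KO, with a median log2 ratio of -0.09. Over all genes at that level 48.8% were lower, with a median of 0.01. The median of the 10 endothelial genes was -0.25. Vasculogenesis was annotated for *Tek*, *Tie1*, *Egfl7* and *Sox17*. Of its 50 genes at that level, which include these 4, 34 (68%) were lower (median -0.06).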
